A study of Mus musculus with 6 samples.

Results

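The genes described here carry, make and break down retinoids, the vitamin A compounds, in the mouse testis at postnatal day 12 (PND12). They are 9 genes chosen by symbol for what their products do: Rbp4, Stra6 and Crabp1 for transport, Rdh10, Aldh1a1 and Aldh1a2 for synthesis, Dhrs3 for the reverse of its first step, and Cyp26a1 and Cyp26b1 for breakdown. All 9 were among the 39253 genes of the count table, and all 9 passed the filter of 0.5 CPM (counts scaled to the size of the library) in at least 3 libraries that left 16632 genes to test. Whole testes of 3 WT mice were compared with those of 3 Tardbp conditional knockout (cKO) mice, all C57BL/6 by their labels and all 12 days old. The cKO mice carried 1 floxed and 1 null allele of Tardbp, the gene of the RNA-binding protein TDP-43, together with Cre recombinase driven by the Stra8 promoter (Stra8-iCre). This Cre acts in germ cells from the spermatogonial stage on and removes exon 3, while the null allele was present in every cell of the animal. The WT mice were not the heterozygous controls used in other experiments of the study, so the groups differed by the null allele and the Cre transgene as well as by the deletion in germ cells. Each mouse gave 1 poly(A) library.

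Retinol travels in blood bound to a carrier protein and is taken up into cells, where it is first oxidized to retinaldehyde and then, irreversibly, to retinoic acid (RA). RA binds nuclear receptors that switch on target genes, and CYP26 enzymes degrade it, so that the RA level of a cell reflects both synthesis and breakdown. In the postnatal mouse testis, Sertoli cells supply RA to spermatogonia, and RA is required for spermatogonia to differentiate and to turn on Stra8 at the entry into meiosis. In a whole testis, fewer cells of a type and less RNA per cell cannot be told apart, which applies to every level given below.

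The libraries held 30028685 to 43371284 estimated counts. By their labels, WT 1, WT 2, WT 3 and cKO 1 were processed in batch 2, whereas cKO 2 and cKO 3 made up batch 1. With batch in the model, the genotype term therefore compared cKO 1 with the 3 WT libraries. Without batch, all 3 cKO libraries entered the comparison, but batch and genotype cannot be told apart for 2 of them. Both models are given for each of the 9 genes. Genes of a wider retinoid list that passed with batch, described further below, are given with the values of the batch model only. Tardbp itself stood at 319, 334 and 313 CPM in WT and at 256, 112 and 137 CPM in cKO, the latter being 79.5%, 34.8% and 42.5% of the WT mean for cKO 1, cKO 2 and cKO 3. Its log2 fold change was -0.33 ± 0.12 (adjusted p = 0.107) with batch and -0.94 ± 0.29 (adjusted p = 0.0416) without, and cKO 2 and cKO 3 were lower than cKO 1 (log2 fold change -1.04 ± 0.13 SE, adjusted p = 0.00181). WT 2 stood apart in markers of neighbouring tissue: 9 epididymal genes summed to 133 CPM there against 6.22 to 26.1 CPM in the other libraries, though Lcn8 was at 0 in all WT libraries and Lcn9 in every library, and 8 fat genes summed to 55.3 CPM against 11.8 to 39.3 CPM, with Cfd, Lep and Cidec at 0 in WT 1 and in cKO 2 and Adipoq at 0 in cKO 2. Nothing in the labels says whether the mice came from separate litters, so p-values measure the spread between these libraries and not between litters. With batch in the model, cKO 1 adds nothing to that spread, since it is the only cKO library of its batch. The p-values of that model rest on the spread among the 3 WT libraries and between cKO 2 and cKO 3.

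With batch in the model, 1 of the 9 genes was higher in cKO (Cyp26b1) and 1 was lower (Rbp4) by edgeR at an adjusted p under 0.05. Over all 16632 genes, 6.91% were higher and 9.24% were lower by the same rule. Without batch, Cyp26b1 was again the 1 gene that was higher, and 3 genes were lower (Rbp4, Crabp1 and Aldh1a2), where 17.1% of all genes were higher and 16.7% lower. All cKO libraries lay above all WT libraries for 3 genes and below them for 4, and this was so for 25.8% and 27.1% of all genes. The median log2 fold change of the 9 genes was -0.21 with batch and -0.46 without it, beside 0.01 and 0.04 over all genes tested. With so few genes, these shares describe the list and do not set it apart from the rest of the transcriptome.

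**Figure D1:**
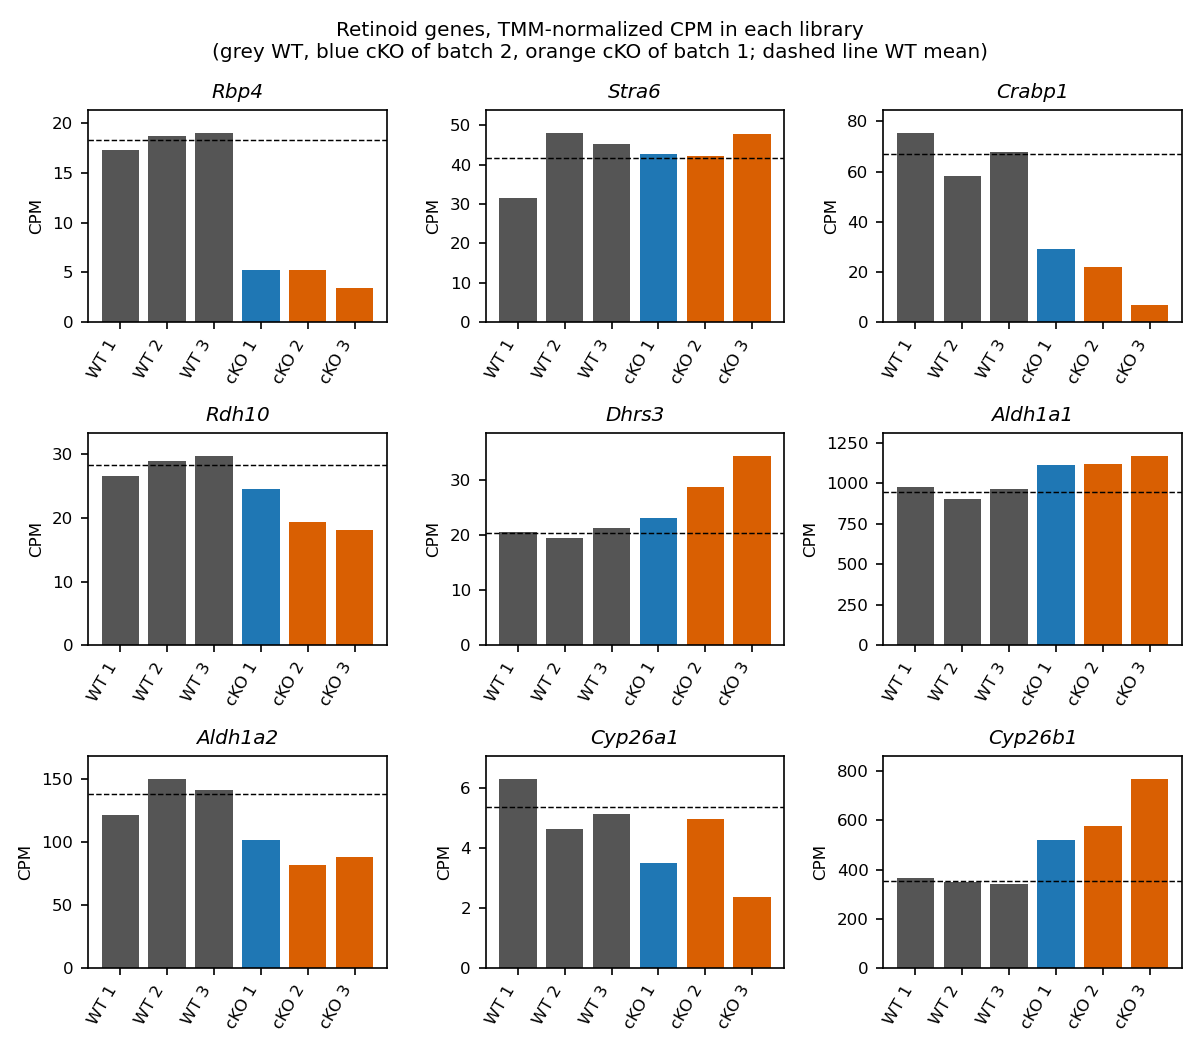
TMM-normalized CPM (y axis, linear, starting at 0) of each of the 9 retinoid genes in each library, with WT in grey, the cKO library of batch 2 in blue, the cKO libraries of batch 1 in orange and the WT mean as a dashed line. Rbp4, at 17.2 to 19.0 CPM in WT and 3.49 to 5.25 CPM in cKO, and Cyp26b1, at 343 to 365 CPM in WT and 519 to 768 CPM in cKO, separate the groups, whereas the bars of Stra6 and Cyp26a1 overlap.

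To compare genes with each other, levels were divided by the exon length of the canonical transcript. Per kilobase, the WT order was Aldh1a1 (153 ± 6.07 CPM per kb, SD, n = 3), Crabp1 (82.9 ± 10.5), Cyp26b1 (65.5 ± 2.12), Aldh1a2 (50.8 ± 5.37), Rbp4 (19.5 ± 1.00), Stra6 (7.79 ± 1.64), Dhrs3 (7.47 ± 0.34), Rdh10 (7.05 ± 0.41) and Cyp26a1 (2.98 ± 0.48). The WT libraries of Stra6, Dhrs3 and Rdh10 overlapped, so the order of these neighbours is not resolved, while the other neighbours did not overlap. In cKO, Crabp1 lost its place next to Aldh1a1. It stood at 35.8, 27.4 and 8.58 CPM per kb in cKO 1, cKO 2 and cKO 3. Aldh1a2 stood at 37.4, 30.2 and 32.45 there, above Crabp1 within each cKO library, though the ranges of these genes overlapped. Cyp26b1 stood at 96.7 to 143.

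Rbp4 showed the largest difference of the 9 genes under the batch model. It encodes the plasma retinol carrier, made mainly in liver, and lies on the minus strand at chr19:38105066-38113754 (GRCm39). Its level was 17.2, 18.7 and 19.0 CPM in WT and 5.25, 5.22 and 3.49 CPM in cKO (libraries 1 to 3, in this order throughout). Every cKO library was thus far below every WT library, at 28.7%, 28.5% and 19.1% of the WT mean. The log2 fold change was -1.80 ± 0.27 (SE, adjusted p = 0.0152) with batch and -1.98 ± 0.21 (adjusted p = 0.00723) without it. The cKO libraries of the 2 batches did not differ detectably from each other (log2 fold change -0.27, adjusted p = 0.463), where 32.0% of all genes did. The call was lost only when WT 2 was left out, at an adjusted p of 0.0563 with batch (log2 fold change -1.78, unadjusted p = 0.00158) and 0.0612 without, settings in which few genes passed at all (7 higher and 5 lower with batch, 1 without).

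Stra6, by contrast, did not pass under either model. It encodes the membrane receptor that takes retinol from the carrier into cells and lies at chr9:57970967-58063543 on the plus strand. It stood at 31.6, 48.0 and 45.2 CPM in WT and at 42.8, 42.1 and 47.8 CPM in cKO. The groups overlapped, with WT 1 the lowest of all libraries. The log2 fold change was 0.04 ± 0.22 (adjusted p = 0.910) with batch and 0.09 ± 0.18 (adjusted p = 0.707) without, and its sign turned when WT 1 was left out (-0.12 with batch and -0.08 without).

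Crabp1 encodes a cytosolic protein that binds RA and is known from spermatogonia in the mouse testis (chr9:54671171-54680403, plus strand). It stood at 75.4, 58.4 and 67.8 CPM in WT and at 29.0, 22.2 and 6.96 CPM in cKO. All cKO libraries were lower than all WT libraries, and they were spread widely, from 43.2% of the WT mean in cKO 1 to 33.1% in cKO 2 and 10.4% in cKO 3. The log2 fold change was -1.21 ± 0.53 with batch, which did not pass (adjusted p = 0.148), and -1.79 ± 0.45 without batch, which did (adjusted p = 0.0241). The difference of cKO 2 and cKO 3 from cKO 1 was -1.0 on the log2 scale and was not resolved (adjusted p = 0.183). The spread among the cKO libraries weighed on the batch model: leaving out cKO 2 or cKO 3 left the estimate at -1.21 but gave adjusted p of 0.00564 and 0.00521, and in the batch 2 libraries alone it was 0.00517. Without batch, omitting any one of WT 1, WT 2, WT 3 and cKO 2 ended the call, with adjusted p of 0.0752, 0.0758, 0.0744 and 0.0626.

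Rdh10 and Dhrs3 encode enzymes that work against each other on the same step. RDH10 oxidizes retinol to retinaldehyde, and DHRS3 reduces retinaldehyde back to retinol. Rdh10 (chr1:16175555-16203958, plus strand) stood at 26.6, 28.9 and 29.8 CPM in WT and at 24.6, 19.5 and 18.1 CPM in cKO. Dhrs3 (chr4:144619245-144654779, plus strand) stood at 20.5, 19.5 and 21.4 CPM in WT and at 23.2, 28.7 and 34.4 CPM in cKO. The groups did not overlap for either gene, Rdh10 being below WT in each cKO library and Dhrs3 above, with cKO 1 the nearest to WT for both. Neither passed: the log2 fold change of Rdh10 was -0.21 ± 0.13 (adjusted p = 0.286) with batch and -0.46 ± 0.16 (adjusted p = 0.0553) without, and that of Dhrs3 was 0.18 ± 0.14 (adjusted p = 0.396) and 0.49 ± 0.17 (adjusted p = 0.0557). With cKO 1 left out and no batch term, both passed (log2 fold changes of -0.62 and 0.61, adjusted p = 0.00155 and 0.00238), in a setting in which 61.8% of all genes passed. The ratio of Rdh10 to Dhrs3 counts, which does not depend on the scaling of a library, was 1.30, 1.48 and 1.39 in WT and 1.06, 0.678 and 0.527 in cKO.

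Dhrs3 is the only one of the 9 genes on the chromosome of Tardbp, 4.04 Mb from it, and so is linked to the engineered alleles. Within 5 Mb of Tardbp, 98 genes were tested, of which 6 were higher and 7 lower with batch (13.3%, where 16.2% of all genes passed) and 26.5% passed without batch (33.8% of all genes). Whether the linked region had a part in the level of Dhrs3 was not tested.

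Aldh1a1 and Aldh1a2 encode retinaldehyde dehydrogenases, which make RA from retinaldehyde in the irreversible step of synthesis. In the mouse testis Aldh1a1 is known from Sertoli and Leydig cells, and Aldh1a2 from germ cells. Aldh1a1 (chr19:20469539-20622825, plus strand) stood at 976, 905 and 963 CPM in WT and at 1112, 1117 and 1169 CPM in cKO. Aldh1a2 (chr9:71122630-71203527, plus strand) stood at 122, 150 and 141 CPM in WT and at 101, 81.8 and 87.8 CPM in cKO. The groups were separate for both genes and lay in opposite directions, the cKO libraries being above WT for Aldh1a1 and below WT for Aldh1a2.

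The difference in Aldh1a1 was small and did not pass: its log2 fold change was 0.23 ± 0.09 (adjusted p = 0.111) with batch and 0.26 ± 0.11 (adjusted p = 0.0997) without. It passed only without batch and without cKO 1 (0.25, adjusted p = 0.0172). Aldh1a2 was at 73.6%, 59.5% and 63.9% of its WT mean in cKO 1, cKO 2 and cKO 3. Its log2 fold change was -0.44 ± 0.13 with batch (adjusted p = 0.0612) and -0.61 ± 0.14 without, the latter passing the test (adjusted p = 0.0186). Without batch, the call did not survive the omission of WT 1, WT 2, WT 3, cKO 2 or cKO 3 (adjusted p = 0.0549, 0.0803, 0.0752, 0.0586 and 0.0638), whereas it was kept without cKO 1 (-0.72, adjusted p = 6.50e-04). In the batch 2 libraries alone the estimate was -0.43, with an adjusted p of 0.0499, and by DESeq2 with batch it was -0.44 (adjusted p = 0.0112). Of the summed CPM of Aldh1a1, Aldh1a2 and Aldh1a3, the third gene of this enzyme family, Aldh1a1 held 87.7%, 84.7% and 86.3% in WT and 90.5%, 91.6% and 91.5% in cKO. It thus held most of the counts of these 3 genes in both groups, with no scaling by exon length.

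Cyp26b1 and Cyp26a1 encode cytochrome P450 enzymes that oxidize RA for breakdown. Cyp26b1 is known from somatic cells of the mouse testis, where in the fetus it keeps germ cells from entering meiosis, and Cyp26a1 is a well-known direct target of RA in many cell types. Cyp26b1 (chr6:84548396-84570890, minus strand) stood at 365, 348 and 343 CPM in WT and at 519, 577 and 768 CPM in cKO. Each cKO library was above each WT library, at 148%, 164% and 218% of the WT mean. The log2 fold change was 0.56 ± 0.15 (adjusted p = 0.0435) with batch and 0.82 ± 0.16 (adjusted p = 0.0146) without, and cKO 2 and cKO 3 did not differ detectably from cKO 1 (0.37, adjusted p = 0.123). The direction was the same in all 23 alternatives, but the call was close to the threshold. With batch it was lost on leaving out WT 1, WT 2 or WT 3 (adjusted p = 0.0855, 0.103 and 0.101), and without batch likewise (adjusted p = 0.0597, 0.0697 and 0.0642).

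Cyp26a1 (chr19:37686241-37689984, plus strand) was the least abundant of the 9 genes. It stood at 6.31, 4.62 and 5.14 CPM in WT and at 3.50, 4.98 and 2.38 CPM in cKO, and cKO 2 fell within the WT range. The log2 fold change was -0.61 ± 0.43 (adjusted p = 0.340) with batch and -0.57 ± 0.30 (adjusted p = 0.173) without, and no alternative passed. Cyp26b1 held 98.3% to 98.7% of the summed CPM of the CYP26 genes in WT and 99.1% to 99.7% in cKO.

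The stretch upstream of Cyp26a1 is shown because it carries the kind of element through which RA receptors are known to act. A pair of hexamers repeated in the same direction and spaced by 1, 2 or 5 bases was searched, each hexamer being AGGTCA or one of its relatives, namely AGTTCA, then GGGTCA, and finally GGTTCA. The search ran on both strands of the 250 bases before each start site that RefSeq gives, in 15 windows for 8 of the 9 genes (Rdh10 was not among them). One window held such a pair, at a spacing of 5, and a pair at this spacing was found in 29 of 32851 mouse promoters (0.0883%). Pairs at a spacing of 1 or 2 were found in none of the 15 windows and in 0.164% and 0.174% of all promoters, and a single hexamer in 3 of the 15 and in 38.6% of all. The pair lies on the strand opposite to the gene, where it reads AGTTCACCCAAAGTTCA, and begins 32 bases before the start site. It is printed here on the strand of the gene (plus), 5′ to 3′, at chr19:37686212-37686252 (GRCm39), with the hexamers in capitals.
Cyp26a1: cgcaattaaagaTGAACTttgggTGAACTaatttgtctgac
The match describes the letters of this window and does not show that a receptor was bound there.

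**Figure D2:**
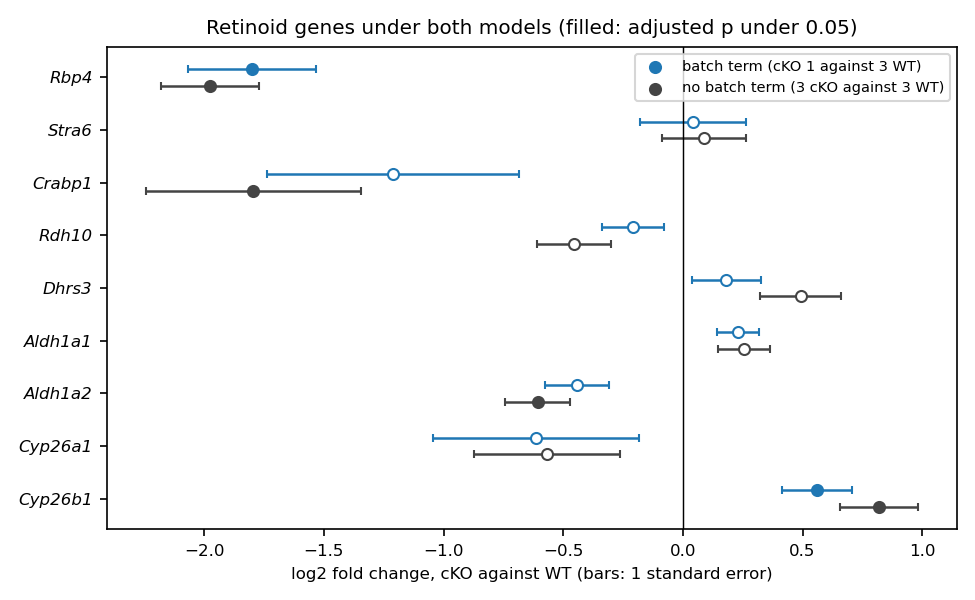
Log2 fold change of cKO against WT (x axis) of the 9 retinoid genes with batch in the model (blue, cKO 1 against 3 WT) and without it (grey, 3 cKO against 3 WT), with bars of 1 standard error and filled points for an adjusted p under 0.05. Rbp4 (-1.80 and -1.98) and Cyp26b1 (0.56 and 0.82) are filled under both models, and Crabp1 (-1.79) and Aldh1a2 (-0.61) without batch only.

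Setting a gene of breakdown against a gene of synthesis within each library, the ratio of Cyp26b1 to Aldh1a2 was 3.001, 2.32 and 2.44 in WT and 5.13, 7.05 and 8.75 in cKO. That the 2 groups did not overlap follows from the levels above, since each cKO library was above WT for Cyp26b1 and below WT for Aldh1a2. The ratio was lowest in cKO 1 among the cKO libraries. Every library held more counts of Cyp26b1 than of Aldh1a2, and so it was per kilobase of exon. The reverse was true of Aldh1a1, the more abundant gene of synthesis, which was above Cyp26b1 in every library. Aldh1a1 stood at 905 to 976 CPM in WT and 1112 to 1169 CPM in cKO, and Cyp26b1 at 343 to 365 and 519 to 768 CPM.

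TDP-43 is known to bind RNA rich in UG repeats, and much of this binding lies in introns. Runs of at least 6 TG units (12 bases) on the sense strand were counted in the GRCm39 sequence of each gene. They numbered 2 in Rbp4, 18 in Stra6, 3 in Dhrs3, 7 in Aldh1a1, 8 in Aldh1a2 and 5 in Cyp26b1, while Crabp1, Rdh10 and Cyp26a1 had none. None of these runs overlapped an exon of the canonical transcript. Of 14431 tested protein-coding genes, 73.8% had at least 1 run, with a median of 2 runs and a median longest run of 36 bases. The longest runs of Rbp4 (44 bases, chr19:38107874-38107937 with 10 bases on each side, minus strand), Aldh1a2 (52 bases, chr9:71142941-71143012, plus strand) and Cyp26b1 (38 bases, chr6:84561559-84561616, minus strand) are shown because these are the genes with a run that passed the test under either model, and each lies in an intron. They are printed 5′ to 3′ on the strand of the gene, with the run in capitals.
Rbp4: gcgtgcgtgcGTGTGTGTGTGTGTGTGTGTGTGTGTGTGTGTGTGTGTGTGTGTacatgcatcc
Aldh1a2: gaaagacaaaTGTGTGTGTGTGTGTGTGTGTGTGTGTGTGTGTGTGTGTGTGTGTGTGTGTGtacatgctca
Cyp26b1: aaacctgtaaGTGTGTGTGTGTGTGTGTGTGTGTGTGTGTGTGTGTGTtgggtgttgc
Genes with and without runs were found among those that passed (Crabp1 had none) and among those that did not (Stra6 had the most), and binding by TDP-43 was not measured in these libraries. The counts of runs were not scaled by gene length. The stretch searched went from 3744 bases in Cyp26a1 to 153287 in Aldh1a1, with 92577 in Stra6, beside a median of 27032. The longest runs of Stra6 and Aldh1a1 lay outside the introns of the canonical transcript.

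A wider list of 66 retinoid genes was examined beside the 9, of which 65 were in the table and 47 were tested. With batch, 6 were higher, 7 were lower and 34 did not pass, with a median log2 fold change of 0.08. Without batch, 11 were higher and 10 lower. Over all genes tested, 6.91% were higher and 9.24% lower with batch, and 17.1% and 16.7% without. These shares also stand beside the counts by role below, which are of few genes each. With batch, calls in both directions were found among the receptor cofactors and the RA targets, and the other roles held calls in 1 direction or none. Without batch, storage and release and the receptors also held 1 call in each direction.

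Among 4 tested genes of uptake and binding, 1 was lower with batch. Lrp2, the gene of megalin, an endocytic receptor for the retinol carrier, stood at 5.43, 6.60 and 5.21 CPM in WT and 2.58, 1.76 and 1.96 CPM in cKO (log2 fold change -1.16 ± 0.29, adjusted p = 0.0391). All cKO libraries were below WT. Of 6 tested genes of storage and release, 1 was lower: Dgat1, an acyltransferase of triglyceride synthesis that can also esterify retinol, stood at 26.2, 36.2 and 30.6 CPM in WT and 17.1, 22.04 and 22.8 CPM in cKO (-0.86 ± 0.19, adjusted p = 0.0304). None of 11 tested genes of retinol oxidation passed with batch by edgeR, although 4 were higher at an unadjusted p under 0.05 and DESeq2 called 1 higher. Without batch, Rdh5 (log2 fold change 0.98, adjusted p = 0.0271) and Dhrs4 (0.76, adjusted p = 0.0190) were the 2 that passed.

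Of 4 other genes of retinaldehyde oxidation, Aox1, an aldehyde oxidase, was higher, at 10.9, 9.74 and 9.40 CPM in WT and 19.4, 25.3 and 29.2 CPM in cKO (0.95 ± 0.16, adjusted p = 0.0175). Of 2 other genes of breakdown, Cyp2s1, a cytochrome P450 that can metabolize RA, was higher, at 22.8, 20.4 and 24.96 CPM in WT and 35.2, 67.9 and 80.2 CPM in cKO (0.63 ± 0.15, adjusted p = 0.0330). The cKO libraries lay above WT for both, and cKO 2 and cKO 3 were further above than cKO 1.

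Of 5 tested receptors, Rara, an RA receptor known for its role in Sertoli cells, was higher, at 97.6, 86.4 and 94.6 CPM in WT and 135, 242 and 276 CPM in cKO (0.54 ± 0.11, adjusted p = 0.0266). Rarg, the receptor known from spermatogonia, did not pass with batch (-0.65 ± 0.26, adjusted p = 0.122) and was lower without it (-0.75, adjusted p = 0.0273). Of 6 receptor cofactors, 2 were higher and 1 was lower. The coactivators did not move together: Ncoa2 was higher, at 274 to 292 CPM in WT and 371 to 603 CPM in cKO (0.38 ± 0.08, adjusted p = 0.0290), whereas Ncoa3 was lower, at 95.9 to 104 CPM in WT and 64.5 to 80.8 CPM in cKO (-0.63 ± 0.11, adjusted p = 0.0202).

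Of 9 tested genes listed as RA targets, 4 were lower and 1 was higher. Stra8, which is needed for the entry into meiosis, stood at 160, 202 and 185 CPM in WT and 52.8, 31.9 and 11.7 CPM in cKO (-1.79 ± 0.48, adjusted p = 0.0460). Meiosin, the partner of STRA8, stood at 119, 202 and 149 CPM in WT and 16.5, 19.5 and 5.82 CPM in cKO (-3.25 ± 0.66, adjusted p = 0.0247). Rec8, a meiotic cohesin subunit, stood at 34.7, 46.8 and 38.9 CPM in WT and 15.6, 9.38 and 6.54 CPM in cKO (-1.36 ± 0.25, adjusted p = 0.0205). These 3 genes are expressed in germ cells about to enter or in meiosis, and their cKO libraries were all below WT. Kit, the receptor of differentiating spermatogonia, was at 142, 148 and 143 CPM in WT and 75.4, 85.1 and 72.9 CPM in cKO (-0.94 ± 0.12, adjusted p = 0.0141). Rarres1, a gene named for its response to retinoids, was higher, at 22.5, 19.3 and 26.8 CPM in WT and 43.4, 43.1 and 58.5 CPM in cKO (0.92 ± 0.21, adjusted p = 0.0317). Each of the 12 genes named here as having passed with batch kept its direction in every alternative, and each lost its call in at least 2 of 23, those without WT 2 among them.

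**Figure D3:**
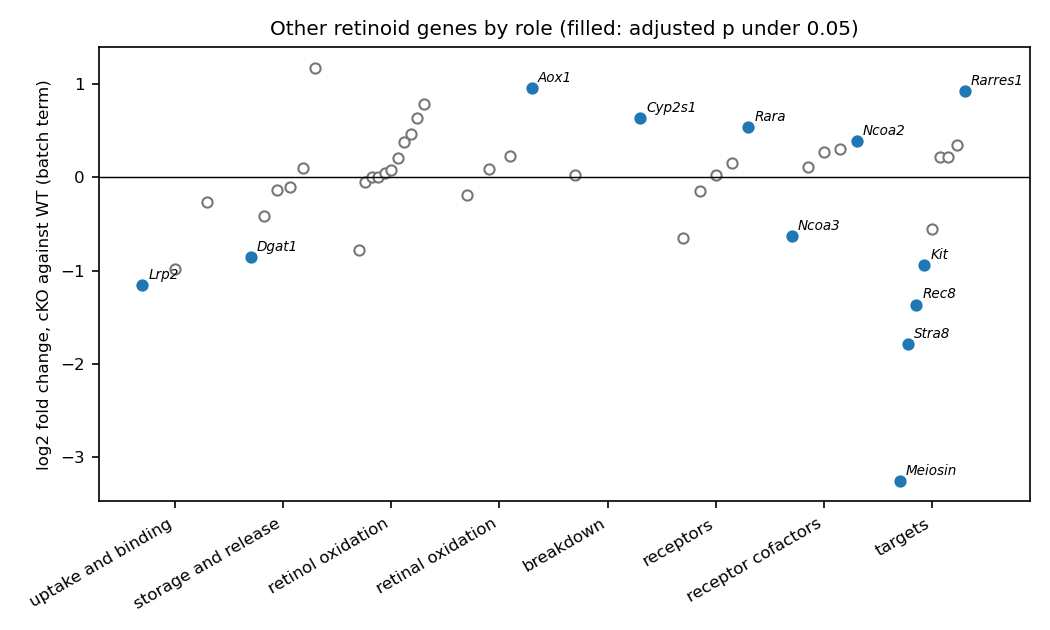
Log2 fold change of cKO against WT with batch in the model (y axis) of 45 of the 47 tested genes of the wider retinoid list, grouped by role on the x axis, with filled and named points for an adjusted p under 0.05. Filled points lie between -3.25 (Meiosin) and 0.95 (Aox1), and the lowest of them are RA targets expressed in germ cells.

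Markers of testis cell types moved with genotype, and their values are given here because the retinoid genes are expressed in several of these cells. Beside the counts of each list stand the shares over all genes, 6.91% higher and 9.24% lower with batch and 17.1% and 16.7% without. Of 20 Sertoli genes, 13 were higher and none lower by edgeR with batch, and none was lower by DESeq2 or at an unadjusted p under 0.05 either. Their median was 0.49 on the log2 scale, and they summed to 7275 to 8296 CPM in WT and 10820 to 18550 CPM in cKO. Sox9, for one, stood at 180 to 223 CPM in WT and 318 to 545 CPM in cKO. Of 10 genes of interstitial mesenchyme, 3 were higher (median 0.80, summed 1898 to 3950 CPM in WT and 5231 to 8036 CPM in cKO). Without batch, 15 Sertoli genes and 5 mesenchyme genes were higher and none of either list lower. The Sertoli and mesenchyme sums were higher in every cKO library than in any WT library.

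Of 9 endothelial genes 1 was higher (summed 165 to 179 CPM in WT and 208 to 302 CPM in cKO), and of 10 Leydig genes 1 (650 to 1142 CPM and 947 to 1215 CPM). Of 9 macrophage genes none passed with batch by edgeR or DESeq2 (1 at an unadjusted p under 0.05), and the sum was 136 to 162 CPM in WT and 178 to 330 CPM in cKO. Of 9 peritubular myoid genes none passed with batch by edgeR or DESeq2 (1 at an unadjusted p under 0.05), and the sums overlapped, at 1188 to 1398 CPM and 1131 to 1427 CPM. Without batch, 4 endothelial, 1 Leydig and 5 macrophage genes were higher and 1 peritubular myoid gene was lower. No marker of these somatic lists was at 0 in any library.

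The germ cell lists differed by stage. Of 10 genes of undifferentiated spermatogonia, 1 was higher and the sums overlapped (340 to 360 CPM in WT, 310 to 469 CPM in cKO). Of 10 genes of differentiating spermatogonia, 4 were lower and 1 higher (1083 to 1153 CPM and 569 to 774 CPM). All 21 genes of the preleptotene to zygotene list were lower, at a median of -2.34 on the log2 scale and a sum of 2867 to 3858 CPM in WT and 201 to 693 CPM in cKO. Without batch, 4 genes of undifferentiated spermatogonia were higher and 1 lower, 1 of differentiating spermatogonia was higher and 7 lower, and all 21 of the meiotic list were again lower. The meiotic sum was lowest in cKO 3 and highest in cKO 1 among the cKO libraries. Crabp1, Rbp4 and Rdh10 showed the same order, and so did the sum of differentiating spermatogonia (774, 696 and 569 CPM). An order of 3 libraries does not tie any of these to another.

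**Figure D4:**
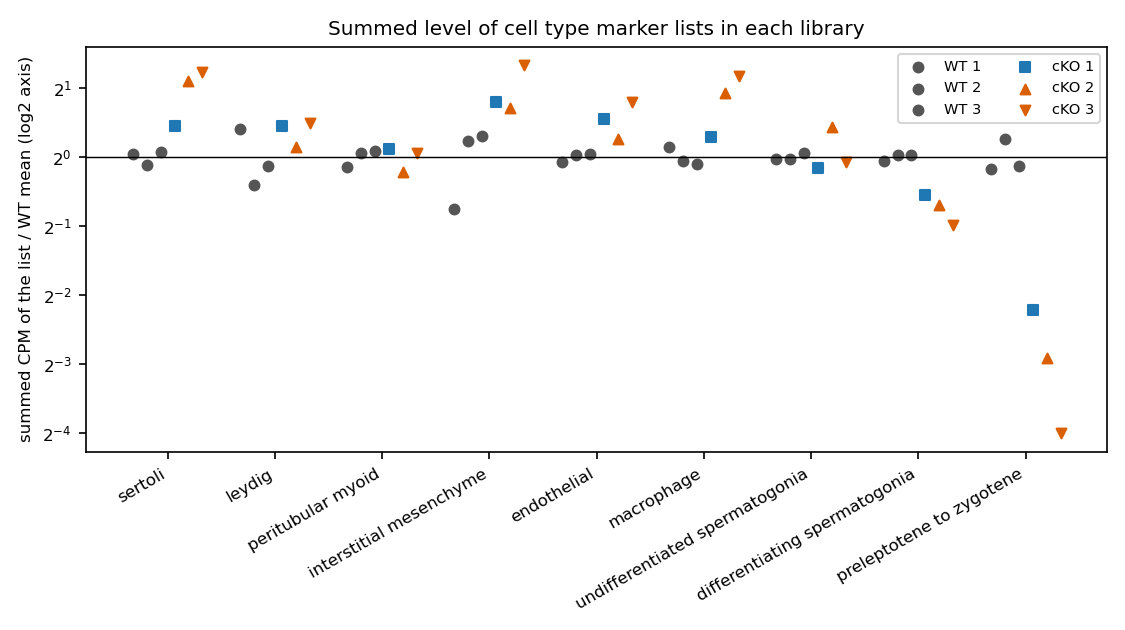
Summed CPM of each marker list in each library divided by the WT mean of the list (y axis, log2 scale), for 9 testis cell types, with circles for WT, a square for cKO 1 and triangles for cKO 2 and cKO 3. The Sertoli sum is 10820 to 18550 CPM in cKO against 7275 to 8296 CPM in WT, and the sum of preleptotene to zygotene genes is 201 to 693 CPM against 2867 to 3858 CPM.

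Cyp26b1 was higher in the same libraries as the Sertoli, mesenchyme, endothelial and macrophage sums. The groups overlapped in the Leydig sum (650 to 1142 CPM in WT, 947 to 1215 CPM in cKO). They also overlapped in the peritubular myoid sum (1188 to 1398 CPM and 1131 to 1427 CPM). Cyp26b1 was set against the Sertoli list only. Relative to the Sertoli sum, it was at 0.0447, 0.0478 and 0.0414 in WT and 0.0480, 0.0338 and 0.0414 in cKO, so that the groups overlapped. Taken against each of the 20 Sertoli genes in turn, the ratio of Cyp26b1 was higher in all cKO than in all WT libraries for 2, lower for 5 and overlapping for 13. The answer thus varied with the marker. Crabp1 was lower in the same libraries as the sums of differentiating spermatogonia and of preleptotene to zygotene genes. The sum of undifferentiated spermatogonia was 340 to 360 CPM in WT. It was below this in cKO 1 and cKO 3 (310 and 330 CPM) and above it in cKO 2 (469 CPM). Relative to the sum of differentiating spermatogonia, Crabp1 was at 0.0696, 0.0507 and 0.0588 in WT and 0.0375, 0.0320 and 0.0122 in cKO. Against each of the 10 genes of that list, the ratio was lower in all cKO libraries for 6, higher for 2 (Stra8 and Prdm9) and overlapping for 2, so this too varied with the marker. The part of cell type makeup in the levels of the retinoid genes was not tested.

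For each retinoid gene, the nearest of 170 other genes of the retinoid and marker lists was found by the Euclidean distance between log2 CPM deviations from the WT mean over the 6 libraries. The nearest to Rbp4 were Syce3 (distance 0.41) and Stag3 (0.45), both of the list of preleptotene to zygotene genes. Syce3 stood at 8.07, 11.6 and 9.79 CPM in WT and at 2.39, 3.10 and 1.98 CPM in cKO. Crabp1 was nearest to Clgn (0.45), a chaperone gene of the pachytene list, at 23.6, 26.7 and 24.7 CPM in WT and 10.4, 7.22 and 2.77 CPM in cKO, and next to Dmrtb1 (0.87), a gene of differentiating spermatogonia. Cyp26a1 was nearest to Sall4 (0.47) and Dnmt3b (0.51), which are on the spermatogonial lists.

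Other neighbours were found for the 3 genes whose cKO libraries all lay above WT. Cyp26b1 was nearest to Dhrs4 (0.22) and to the endothelial gene Tie1 (0.27), Dhrs3 to the macrophage gene Fcer1g (0.12) and to Nrip1 (0.24), and Aldh1a1 to Tgm2 (0.16). Aldh1a2 was nearest to Cnn1 (0.44), a gene of peritubular myoid cells, and to Fabp5 (0.52), Rdh10 to Fabp5 (0.31) and Adh5 (0.39), and Stra6 to Lipe (0.33) and Aldh1a7 (0.46). These distances rest on 6 libraries of 2 groups and describe the size and shape of the differences from WT alone. All 21 preleptotene to zygotene genes were lower with batch, and no Sertoli or mesenchyme gene was. The makeup of the lists thus limited which neighbours a gene far below WT could have.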

How the data were processed

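RNA from whole testes of 3 WT and 3 cKO mice was sequenced, 1 stranded poly(A) library each. The authors used bcl2fastq 2.20 and quantified reads with Salmon 1.2.0 on NCBI transcripts, with GRCm39 as the decoy sequence, and the deposited estimated counts per gene are bias-corrected tximport sums, so reads shared by similar genes are split between them. The deposited log2 values are TMM-normalized log2 CPM of the 16911 genes that the authors kept (R 4.0.4, with edgeR 3.32.1 and limma 3.46.0, by the submitters' processing notes).

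Expected counts were rounded, and edgeR 4.0.16 (R 4.3.3) was run on them in its quasi-likelihood mode, with TMM normalization and batch and genotype in the model, over 16632 genes at 0.5 CPM or more in at least 3 libraries. Adjustment was by Benjamini and Hochberg over all of these (threshold 0.05). The standard error is the log2 fold change divided by the square root of F. Alternatives were no batch term, batch 2 alone, limma-trend (limma 3.58.1) on own and deposited log2 values, DESeq2 1.42.0, other size factors, other filters, a replicate block and leaving out each library. On simulated counts for this comparison (16632 genes), 84%, 52%, 54% and 92% of 50 genes each were called at true log2 fold changes of -2, -1, 1 and 2, and 18 of 16432 unchanged genes. The changed genes were drawn from those above a minimum level, and batch effects were drawn at random for each gene. Far fewer genes were changed there than passed in the data (16.2%), so these rates need not hold for the data.

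Positions and exons came from GENCODE vM39 on GRCm39 (31381 symbols matched), and start sites from RefSeq (GRCm38.p6), whose windows of 250 bases were matched exactly to GRCm39. The members and lists were chosen with earlier results of these data known. Genes named are the 9 members, genes of the wider list that passed, genes from the first 3 of a marker list and the 2 nearest genes of each member. Rarg, Rdh5, Aldh1a3, Lep, Cidec and Prdm9 fall outside this rule and were named after their values were seen. The values of 2 genes that count in the wider list are not reported here. Tables were drawn up with Python 3.11.15, numpy 2.4.6 and pandas 2.3.3, and figures with matplotlib 3.10.9.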

Additional observations from a re-analysis of the deposited data

Results flagged for a closer look

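Of 43 tested genes named in the text with their levels or as neighbours, 7 differed between the cKO libraries of batch 1 (cKO 2 and cKO 3) and that of batch 2 (cKO 1) by edgeR, and none of the 9 transport, synthesis and breakdown genes did. Over all genes tested, 32.0% differed by the same rule. On the log2 scale, cKO 2 and cKO 3 were higher than cKO 1 by 1.07 for Cyp2s1 (adjusted p = 0.00370), by 0.95 for Rara (adjusted p = 0.00243) and by 0.69 for Ncoa2 (adjusted p = 0.00255). They were also higher by 0.69 for Sox9 (adjusted p = 0.0119). For Adh5 the difference was -0.41 (adjusted p = 0.0453). For Rec8 the difference was -0.97 (adjusted p = 0.0215), and for Tardbp itself it was -1.04 (adjusted p = 0.00181). Batch and mouse cannot be told apart here, since batch 1 holds 2 cKO libraries and no WT library.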

How the results depend on the processing

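Of the 9 genes, the count that was higher stayed at 1 except with a replicate block and batch (0) and on leaving out libraries (0 to 3). The count that was lower, 1 with batch, was 3 without batch, in batch 2 alone, in limma-trend without batch, with no filter and with a replicate block and no batch, 2 with DESeq2, and 0 to 4 on leaving out libraries. In the wider list, 6 higher became 11 without batch, 10 in limma-trend without batch, 3 with a replicate block and batch, and 0 to 18 on leaving out libraries, and 7 lower became 12 in limma-trend without batch and 0 to 18 on leaving out libraries. Leaving out WT 2 gave the lowest counts and leaving out cKO 1, without batch, the highest. Over all genes, 1150 higher and 1537 lower became 2841 and 2783 without batch and 638 and 579 with a replicate block and batch. The log2 fold change of Stra6 was -0.12 with batch and -0.08 without when WT 1 was left out, 0.20 at the highest on leaving out libraries, and 0.44 with a replicate block and batch (adjusted p = 0.169). The cause of these changes was not tested. Same-numbered WT and cKO libraries did not deviate together (correlations of -0.10, -0.06 and 0.01). The cKO deviations set cKO 1 against cKO 2 and cKO 3 (correlations of -0.70 and -0.74), which could hide a shared deviation. These values therefore cannot decide whether the numbers pair the mice. The batch model without cKO 1 could not be fitted, since genotype and batch are then the same. Cyp26a1 had the lowest level of the 9 genes, at 2.38 to 6.31 CPM.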
